A study of Homo sapiens with 24 samples.

Results

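The genes named LINC followed by a number are long intergenic non-coding RNA genes, and the 100 of them with a mean RSEM expected count of at least 50 over 24 RNA-seq libraries of 2 clear cell renal cell carcinoma (ccRCC) lines were examined. The count table held 876 such genes among 26475, and 672 of the 876 had an expected count above 0 in some library. The members were therefore chosen by their measured abundance, and all 100 also passed the filter on low counts, as did 15665 genes in all. Just inside the threshold lay LINC00910, LINC01356 and LINC01503, with mean counts of 52.01, 56.92 and 58.05, and just outside it lay LINC00960, LINC01117 and LINC00886, with 49.53, 49.04 and 48.38. A member that reached the threshold only through libraries in which it is high had to differ from the others, so its values there are given without a p-value. This was taken to hold where its mean count was below 50 over all libraries outside the higher group or over all libraries of the lower kind (the other line, construct or kind of construct).

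The lines were 786-M1A and OS-LM1, metastatic derivatives of the human ccRCC lines 786-O and OS-RC2, which both carry a mutated VHL tumour suppressor. In each line 4 replicate libraries came from cells with shPAX8-1, 4 from cells with shPAX8-2 and 4 from cells with sgNTC18. The hairpins shPAX8-1 and shPAX8-2 are short hairpin RNAs against PAX8, a paired-box transcription factor of the renal epithelial lineage, and sgNTC18 is named as a non-targeting guide RNA. All cells grew at 80% confluence in RPMI medium with 10% fetal bovine serum, and the methods describe the hairpins in doxycycline-inducible vectors. Since the control hairpin of the study's methods was one against Renilla luciferase, the sgNTC18 cells differ from the hairpin cells in the kind of construct as well as in PAX8, and these cannot be told apart. Nothing states that replicates were separate cultures, so p-values measure only the spread between these libraries.

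Long non-coding RNAs are transcripts, mostly spliced, capped and polyadenylated, that encode no long protein. Those between protein-coding genes are often made in few tissues and at low levels, and many differ in expression between tumours of one kind. Some act on neighbouring genes in cis, some bind proteins or microRNAs elsewhere in the cell, and several first listed as LINC genes were later found to encode a microprotein. For most of the genes described here no function is established, and a LINC number by itself says only where a gene lies.

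The current RefSeq annotation of GRCh38.p14 matched 94 of the 100 by accession and 6 by an older symbol. It lists 93 as long non-coding RNA, 6 as protein coding and 1 as a transcribed pseudogene, and 26 now have another symbol. The 6 protein-coding entries were LINC00094 (BRD3OS, opposite BRD3), LINC00116 (MTLN, a mitochondrial microprotein), LINC00493 (SMIM26, another mitochondrial microprotein), LINC00998 (SMIM30, a small membrane protein), LINC01420 (NBDY, a microprotein of the mRNA decapping machinery) and LINC01279, which is an older symbol of CCDC80. The pseudogene was LINC01296, now DUXAP9. The members lay on 23 chromosomes, 15 of them on chromosome 1, and 57 overlapped another annotated gene. RSEM divides reads that fit several transcripts, and 25 members had whole-number counts in every library whereas 67 had fractional counts in at least 20 libraries. The median GC content was 45.62% over 94 members with a value and 47.84% over 15303 tested genes with one.

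In the library check, PAX8 averaged 341 CPM in 786-M1A sgNTC18, 18.7 with shPAX8-1 and 42.4 with shPAX8-2, and 260, 78.2 and 79.2 CPM in OS-LM1. CPM is a gene's count scaled to 1 fixed library size after TMM scaling, which evens out differences in composition. The total of expected counts was 20511915 in the median library and ranged from 11634419 to 52059375. The leukocyte marker PTPRC stayed between 0.0807 and 0.238 CPM and the endothelial marker CDH5 between 0 and 0.0296 CPM in the group means. The epithelial keratin KRT18 averaged between 107 and 536 CPM in the groups. The ccRCC marker CA9 averaged 0, 0.0289 and 0.0405 CPM in 786-M1A and 6.4, 42.2 and 29.5 CPM in OS-LM1, in the order sgNTC18, shPAX8-1 and shPAX8-2. Within 786-M1A shPAX8-1, replicates 1 and 2 resembled each other, as did replicates 3 and 4, more than either pair resembled the other. The chi-square per gene was 14.09 and 3.731 within the pairs and 44.74 to 77.37 across them. A called value below that loses its call without one of these pairs is also given without it or named as depending on single libraries. In 786-M1A shPAX8-2 the same replicate numbers gave 3.956 and 11.68 within pairs and 14.92 to 19.23 across them. Those pairs were not left out. The largest value of any group, 89.45, lay between replicates 3 and 4 of OS-LM1 shPAX8-2.

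The promoters of 4 genes are shown before the values, since their genes carry the main patterns: LINC00704 is lower in the shPAX8 libraries of both lines, LINC01583 and LINC00622 are higher in them, and LINC00998 holds a paired-domain core sequence. Each is the RefSeq sequence of GRCh38.p14 from 250 bases before to 50 bases after the annotated start, 5′ to 3′ on the gene's strand. Capitals mark matches, on either strand, to GCGTGAC (a core of paired-domain sites), ACGTG (the core of hypoxia response elements), CACGTG (an E-box, which contains ACGTG) or TATAAA, the TATA box sequence. LINC00704 lies at chr10:4678021-4678320 (minus strand), LINC01583 at chr15:82088344-82088643 (plus), LINC00622 at chr1:119599242-119599541 (minus) and LINC00998 at chr7:113118505-113118804 (minus).
LINC00704: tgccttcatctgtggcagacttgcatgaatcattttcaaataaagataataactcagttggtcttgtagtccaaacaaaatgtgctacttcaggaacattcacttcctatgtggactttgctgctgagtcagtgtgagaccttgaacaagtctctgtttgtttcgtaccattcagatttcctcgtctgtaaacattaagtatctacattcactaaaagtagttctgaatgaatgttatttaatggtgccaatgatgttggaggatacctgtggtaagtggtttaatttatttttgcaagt
LINC01583: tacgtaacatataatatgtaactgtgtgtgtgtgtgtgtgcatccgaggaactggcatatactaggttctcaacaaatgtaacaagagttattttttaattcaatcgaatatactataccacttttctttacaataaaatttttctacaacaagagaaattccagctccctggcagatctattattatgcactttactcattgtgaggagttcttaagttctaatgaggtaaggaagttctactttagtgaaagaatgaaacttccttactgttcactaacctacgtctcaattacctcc
LINC00622: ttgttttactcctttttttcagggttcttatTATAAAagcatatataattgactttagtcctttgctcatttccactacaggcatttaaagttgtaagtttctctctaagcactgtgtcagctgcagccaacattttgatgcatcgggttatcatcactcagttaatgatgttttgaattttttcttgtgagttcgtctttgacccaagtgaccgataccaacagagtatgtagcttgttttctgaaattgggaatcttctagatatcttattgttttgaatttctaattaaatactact
LINC00998: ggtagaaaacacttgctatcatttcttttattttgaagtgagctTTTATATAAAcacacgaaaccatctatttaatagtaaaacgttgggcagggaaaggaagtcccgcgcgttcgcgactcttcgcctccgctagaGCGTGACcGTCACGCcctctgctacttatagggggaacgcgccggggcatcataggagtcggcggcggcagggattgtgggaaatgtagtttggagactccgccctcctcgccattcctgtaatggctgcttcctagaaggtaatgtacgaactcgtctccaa

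The first 2 promoters held none of the 4 words, with a GC content of 36.7% for LINC00704 and 34.0% for LINC01583. LINC00622 held 1 TATAAA at base 32, far upstream of its start. LINC00998 held GCGTGAC at base 138 and on the opposite strand at base 146, and TATAAA on both strands in overlapping letters at bases 49 and 45. Of 73 members with a promoter sequence, 2 held GCGTGAC (2.74%), LINC00998 and LINC01003, against 2.61% of 27305 promoters of all genes. ACGTG was in 35.6% of the members' promoters and 21.6% of all, CACGTG in 6.85% and 7.43%, and TATAAA in 13.7% and 12%. These are matches of letters in a short window and say nothing of binding.

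The most abundant members per length were LINC00152 (CYTOR, the cytoskeleton regulator RNA), LINC00493 (SMIM26), LINC01420 (NBDY), LINC01116, LINC00657 (NORAD, a DNA-damage-activated RNA that binds PUMILIO proteins) and LINC00998 (SMIM30). Their mean deposited TPM over the 24 libraries, the level per transcript length, was 324.9, 244.0, 159.1, 91.71, 77.41 and 71.64, so 3 of the 6 are now annotated as microprotein genes. The 100 members ranged from 0.3446 TPM, for LINC01105, to 324.9, with a median of 6.192 against 9.718 for all genes tested. TPM divides by an effective length and so is far above CPM for short transcripts such as LINC00493. Together the members took 0.146% of the counts in 786-M1A sgNTC18, 0.172% with shPAX8-1 and 0.187% with shPAX8-2. In OS-LM1 the shares were 0.141%, 0.212% and 0.167%.

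The members' levels in the 6 groups were set beside those of all genes. A mean count of at least 50 was reached in all 6 groups by 54 members and in 1 group by LINC00601. Spearman's rho of the mean log2 CPM between the sgNTC18 groups of the lines was 0.665 over the 100 members and 0.905 over all genes tested. Between sgNTC18 and shPAX8-1 it was 0.777 against 0.913 in 786-M1A and 0.72 against 0.926 in OS-LM1, and between the hairpins 0.956 against 0.976 and 0.922 against 0.989. These are descriptions across genes, which share libraries and are not replicates, and the members' lower counts add noise that was not separated from them. The members also spanned a narrower range of levels, 0.3446 to 324.9 TPM beside 0.02458 to 51690 TPM, and its effect on rho was not separated either. The median absolute difference of shPAX8-1 to sgNTC18 was 0.81 log2 for members and 0.78 for all genes in 786-M1A. In OS-LM1 it was 0.59 and 0.67 log2. The mean level was highest in OS-LM1 shPAX8-1 for 29 members and in 786-M1A shPAX8-2 for 22, where 17.9% and 15.6% of all genes tested had their highest level. It was highest in OS-LM1 shPAX8-2 for 7 members, where 12.7% of all genes had theirs.

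**Figure D1:**
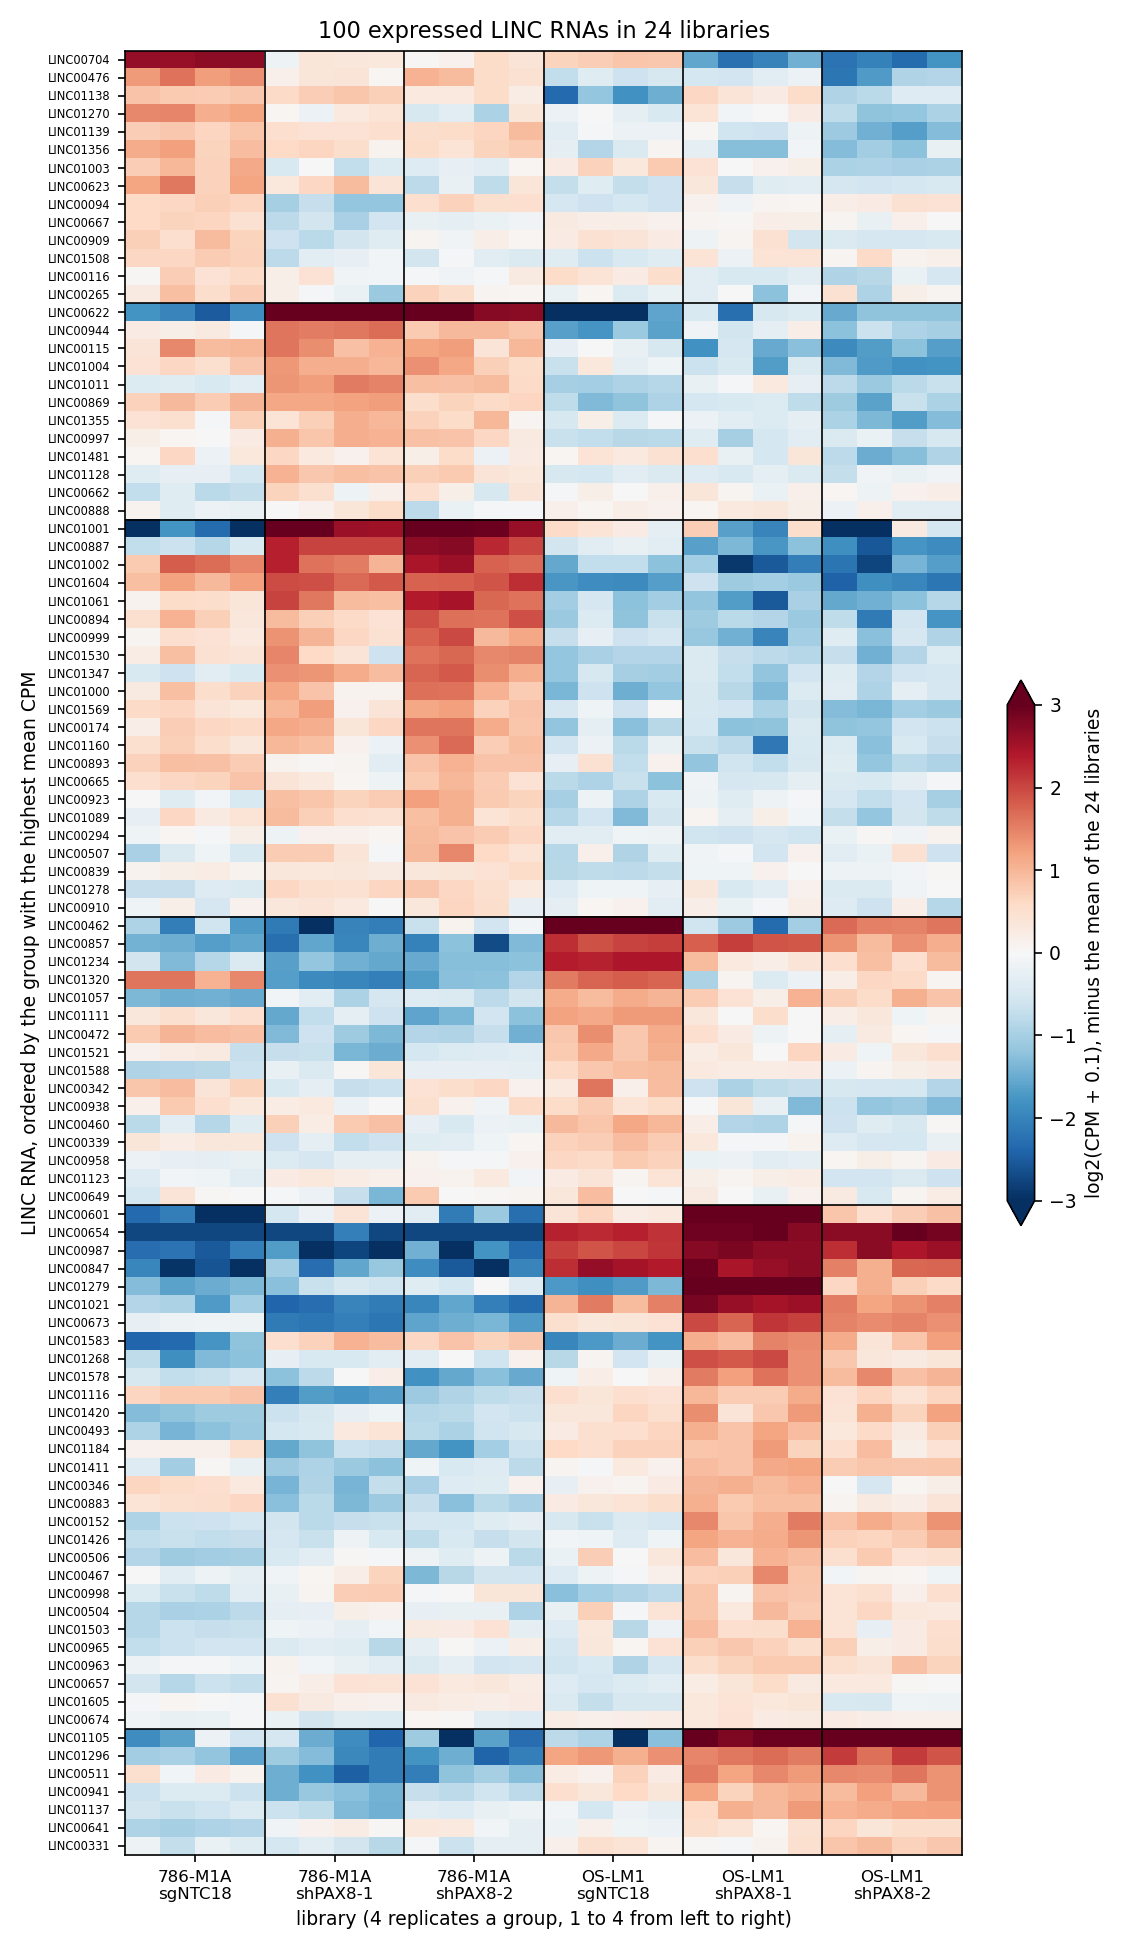
Each row is 1 of the 100 LINC RNAs and each column 1 of the 24 libraries; colour is log2(CPM + 0.1) minus the row's mean, and rows are ordered by the group in which their mean CPM was highest. The blocks of high values along the groups come from this order. The mean was highest in OS-LM1 shPAX8-1 for 29 LINC RNAs, beside 17.9% of all genes tested, and in 786-M1A shPAX8-2 for 22, beside 15.6%.

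LINC00704, now MANCR, the mitotically associated long non-coding RNA, was named when the genes were chosen because it was lower in the shPAX8 libraries of both lines, so its levels against sgNTC18 are a description with no test. The gene lies on the minus strand of chromosome 10, from 4650185 to 4678070, with 1 annotated transcript, and overlaps LINC00705 on the plus strand, whose mean count was 1.042. In 786-M1A sgNTC18 its 4 libraries read 141, 139, 145 and 144 CPM. With shPAX8-1 they read 20.1, 29.1, 28.7 and 27.9 CPM, and with shPAX8-2 23, 24.4, 32.9 and 29.3 CPM. No hairpin library of 786-M1A came near the sgNTC18 libraries. In OS-LM1 the sgNTC18 libraries read 35.8, 37.4, 39.9 and 39.5 CPM. With shPAX8-1 the values were 7.58, 4.71, 5.58 and 8.23 CPM, and with shPAX8-2 4.76, 5.43, 4.46 and 6.37 CPM. The difference to sgNTC18 was -2.43 and -2.38 log2 in 786-M1A and -2.54 and -2.86 log2 in OS-LM1, for shPAX8-1 and shPAX8-2. In bulk RNA, fewer cells that make the transcript and less transcript per cell cannot be told apart.

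The choice of LINC00704 did not name its line or hairpin differences. These use the same libraries, however, so they are not independent of the choice, least of all between the hairpins. LINC00704 was 3.73-fold lower in OS-LM1 than in 786-M1A among the sgNTC18 libraries (log2 difference -1.90, SE 0.14, adjusted p 6.5e-12, edgeR's quasi-likelihood test). Among the shPAX8 libraries it was 4.58-fold lower (-2.20, SE 0.11, adjusted p 3.5e-16). The groups did not overlap in either comparison. The hairpins differed by -0.05 log2 in 786-M1A (SE 0.14, adjusted p 0.82) and by 0.32 log2 in OS-LM1 (SE 0.16, adjusted p 0.17), and their libraries overlapped in both lines. The order of the group means, highest first, was 786-M1A sgNTC18, OS-LM1 sgNTC18, the 786-M1A hairpin groups and the OS-LM1 hairpin groups. The hairpin groups of a line did not differ beyond their spread, and OS-LM1 sgNTC18 was not tested against the 786-M1A hairpin groups.

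**Figure D2:**
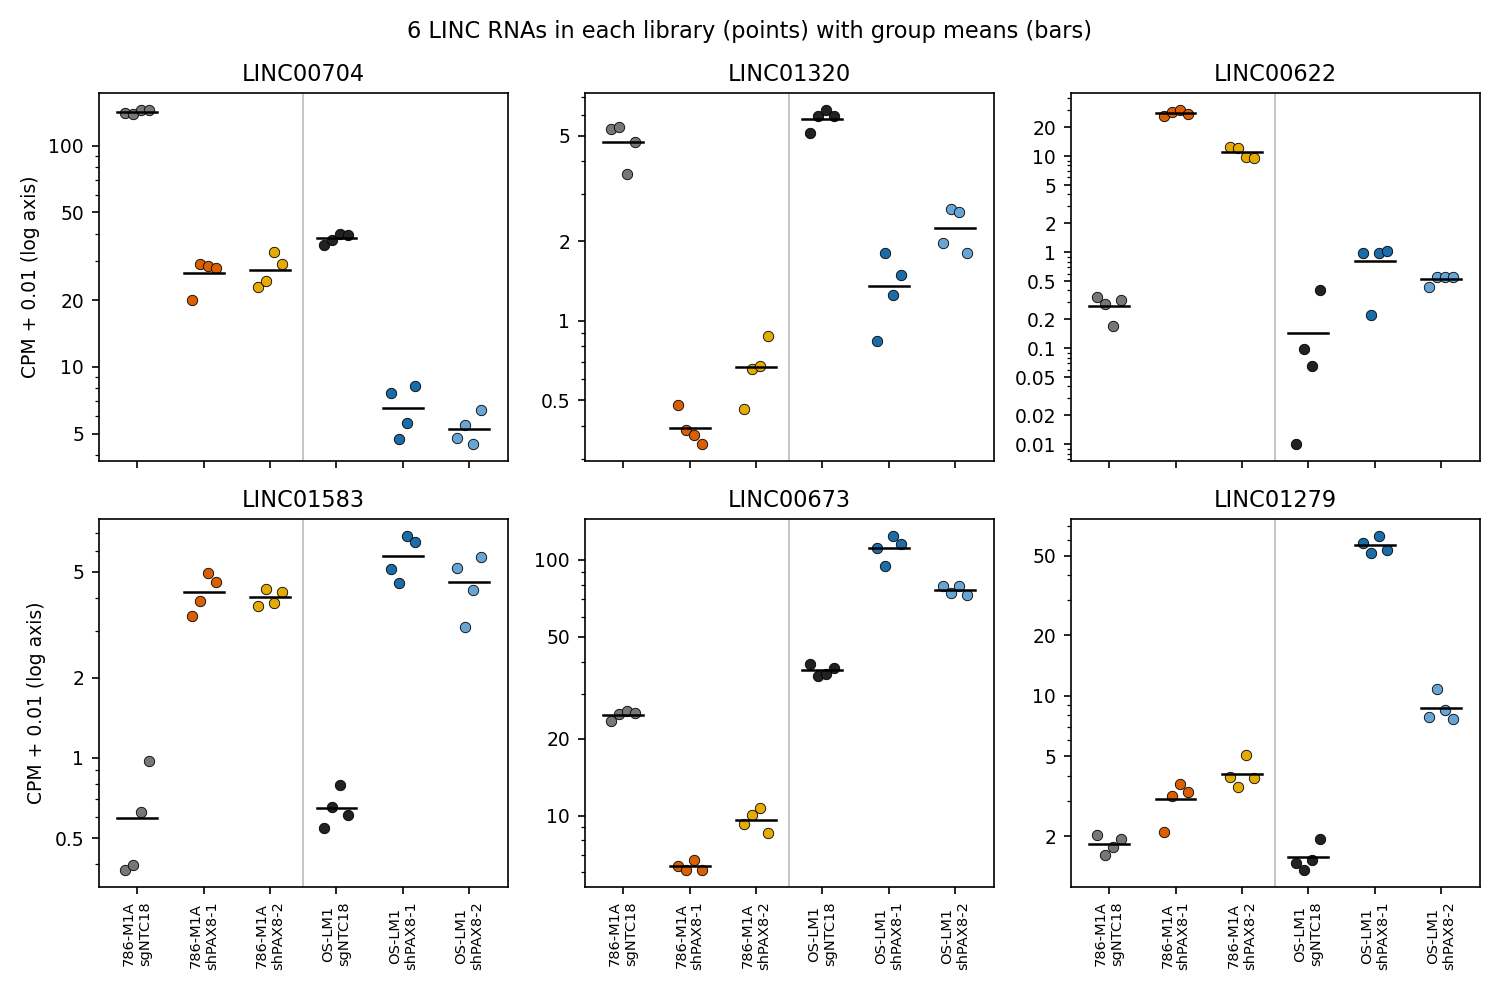
Points are the 24 libraries for LINC00704, LINC01320, LINC00622, LINC01583, LINC00673 and LINC01279, as CPM + 0.01 on a log axis, and bars are the means of the 4 libraries of each line and construct. LINC00704 and LINC01320 are lower in every hairpin group, LINC01583 is higher in every one, and LINC00673 moves in opposite directions in the lines.

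Against sgNTC18, most members differed in either line, in total shares near those of all genes. With shPAX8-1 in 786-M1A, 68 of 100 passed an adjusted p of 0.05, 37 higher and 31 lower, beside 69.5% of all genes tested, 34.9% higher and 34.6% lower. With shPAX8-2 there, 70 passed, 44 higher and 26 lower, beside 62.4%, 30.8% and 31.5%. In OS-LM1, shPAX8-1 gave 65 calls, 43 higher and 22 lower, beside 67.0%, 34.0% and 32.9%, and shPAX8-2 gave 60, 31 higher and 29 lower, beside 63.5%, 31.4% and 32.1%. The members' median difference was 0.15 and 0.26 log2 in 786-M1A and 0.27 and 0 log2 in OS-LM1, and that of all genes lay between -0.03 and 0.01. The libraries did not overlap for 61, 59, 58 and 54 members in turn, beside 60.0%, 57.6%, 64.0% and 59.6% of all genes tested. Of the calls, 9, 7, 11 and 12 were of members that reached the threshold through the side on which they were higher. Both hairpins are set against the same 4 sgNTC18 libraries in each line, so the comparisons within a line are not independent of one another, and the kind of construct cannot be told apart from PAX8 in any of them.

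**Figure D3:**
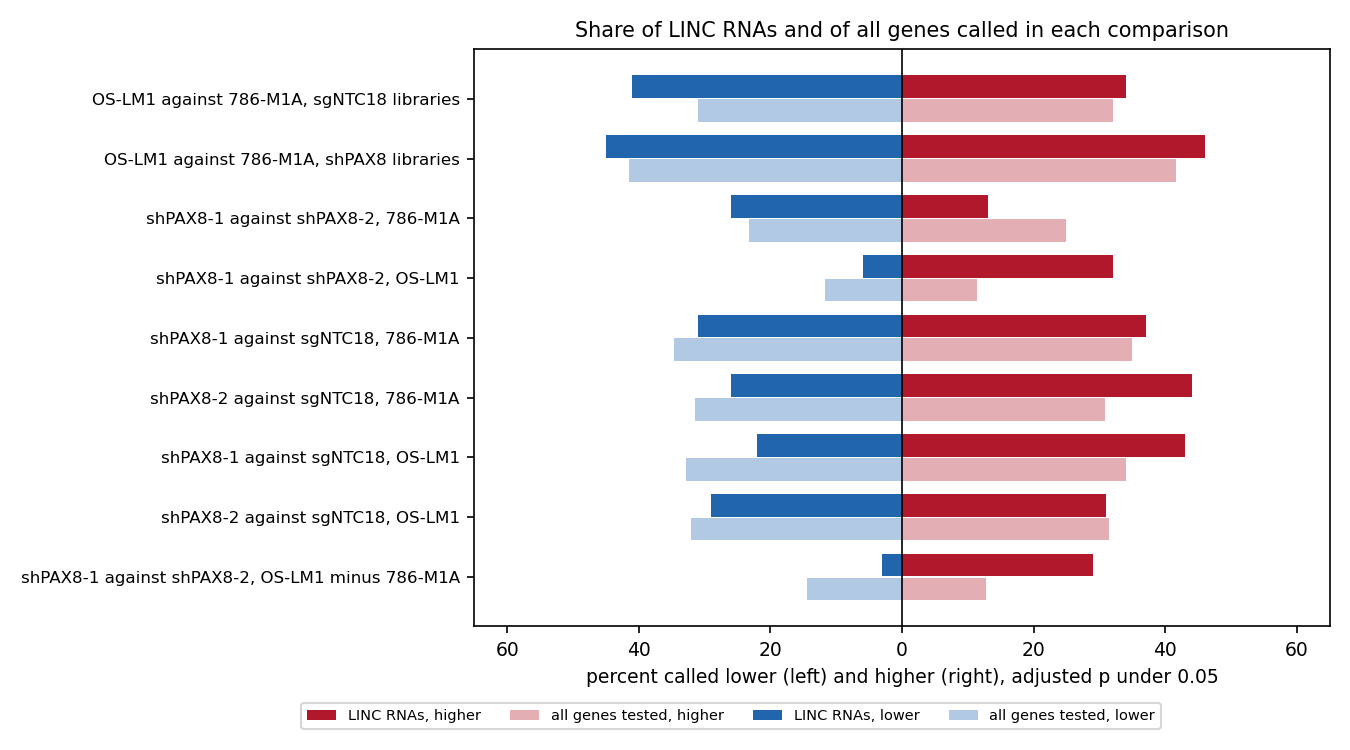
Bars give the percent of the 100 LINC RNAs and of all genes tested that were called higher or lower at an adjusted p under 0.05 in each comparison. The shares higher and lower together are close against sgNTC18, where the members' share of higher calls with shPAX8-2 in 786-M1A was 44% beside 30.8% and with shPAX8-1 in OS-LM1 43% beside 34.0%, while between the hairpins in OS-LM1 32% of the LINC RNAs and 11.4% of all genes were higher with shPAX8-1.

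LINC01320 and LINC00472 were lower with both hairpins in both lines, and LINC01583 was higher. LINC01320, on chromosome 2 at 34677557 to 34722563 (plus strand), read 5.3, 5.36, 3.56 and 4.74 CPM in 786-M1A sgNTC18. With shPAX8-1 it read 0.471, 0.377, 0.361 and 0.331 CPM, and with shPAX8-2 0.455, 0.647, 0.663 and 0.866 CPM. In OS-LM1 it read 5.13, 5.92, 6.23 and 5.91 CPM with sgNTC18, 0.826, 1.8, 1.24 and 1.48 with shPAX8-1, and 1.96, 2.63, 2.57 and 1.79 with shPAX8-2. All hairpin libraries lay below all sgNTC18 libraries of their line. The differences in 786-M1A were -3.60 log2 with shPAX8-1 (SE 0.25) and -2.85 log2 with shPAX8-2 (SE 0.24). In OS-LM1 they were -2.11 (SE 0.20) and -1.37 (SE 0.19). These are descriptions, since its mean count over the hairpin libraries was 27.56 and it reached the threshold through the sgNTC18 libraries. Its sgNTC18 levels did not differ between the lines beyond their spread, at 0.30 log2 (SE 0.18, adjusted p 0.17). LINC00472, on chromosome 6 at 71407864 to 71420745, fell from 6.45 ± 0.422 CPM (SD, n = 4) to 1.58 ± 0.414 and 1.72 ± 0.369 in 786-M1A, and from 7.14 ± 1.46 to 3.84 ± 0.802 and 3.44 ± 0.548 in OS-LM1. Its 4 adjusted p-values lay between 1.6e-09 and 9.5e-05.

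LINC01583, whose promoter is printed above, begins at base 82088594 of chromosome 15. It read 0.37, 0.387, 0.615 and 0.966 CPM in 786-M1A sgNTC18 and 0.535, 0.644, 0.779 and 0.603 CPM in OS-LM1 sgNTC18. In 786-M1A it read 3.4, 3.86, 4.94 and 4.58 CPM with shPAX8-1 and 3.7, 4.32, 3.81 and 4.2 CPM with shPAX8-2. In OS-LM1 the values were 5.1, 4.55, 6.82 and 6.45, and 5.18, 3.1, 4.26 and 5.67 CPM. The lowest hairpin library, 3.1 CPM, was above the highest sgNTC18 library of either line. Its differences were 2.81 log2 (SE 0.25) and 2.75 log2 (SE 0.26) in 786-M1A, and 3.16 (SE 0.23) and 2.82 (SE 0.23) in OS-LM1, as descriptions, since its mean count over the sgNTC18 libraries was 18.28. The nearest protein-coding start, 42576 bases away in divergent orientation, is that of MEX3B, which encodes an RNA-binding protein. MEX3B had mean levels of 6.65, 14.0 and 12.1 CPM in the 786-M1A groups and 0 CPM in all 3 OS-LM1 groups. In 786-M1A MEX3B was higher by 1.08 log2 with shPAX8-1 and 0.87 log2 with shPAX8-2, and a link between the genes was not tested.

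LINC00622 had the largest difference to sgNTC18 with shPAX8-1 in 786-M1A among the 100 members, as a description. It reached the threshold through the hairpin libraries of that line, with a mean count of 44.15 outside 786-M1A shPAX8-1 and 5.375 over the sgNTC18 libraries. Its 786-M1A sgNTC18 libraries read 0.329, 0.276, 0.162 and 0.307 CPM. With shPAX8-1 they read 26.2, 28.5, 30.1 and 27.8 CPM, and with shPAX8-2 12.4, 12.2, 9.78 and 9.6 CPM. The differences were 6.72 log2 (SE 0.35) and 5.37 log2 (SE 0.35). In OS-LM1 the levels were low throughout, at 0, 0.0879, 0.0556 and 0.392 CPM with sgNTC18, 0.972, 0.212, 0.963 and 1.02 with shPAX8-1, and 0.42, 0.537, 0.542 and 0.544 with shPAX8-2. The shPAX8-1 libraries of OS-LM1 overlapped the sgNTC18 ones, with a difference of 2.60 log2 (SE 0.47). All of its counts were whole, so none was divided with another transcript.

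LINC00673 and LINC00511 moved in opposite directions in the lines. They lie next to each other on the minus strand of chromosome 17, LINC00673 from 72403322 to 72592804 and LINC00511 from 72598041 to 72640472. LINC00673 read 23.4, 24.9, 25.6 and 25.2 CPM in 786-M1A sgNTC18. With shPAX8-1 it read 6.33, 6.12, 6.68 and 6.13 CPM, and with shPAX8-2 9.27, 10.0, 10.7 and 8.53 CPM. In OS-LM1 it read 39.3, 35.2, 35.9 and 37.7 CPM with sgNTC18, 111, 94.5, 124 and 116 with shPAX8-1, and 79.1, 74.5, 79.1 and 72.7 with shPAX8-2. It thus fell in 786-M1A, by 1.97 log2 (SE 0.10, adjusted p 2.2e-15) and 1.36 log2 (SE 0.10, adjusted p 3.7e-12), and rose in OS-LM1, by 1.59 log2 (SE 0.09, adjusted p 2.2e-14) and 1.04 log2 (SE 0.09, adjusted p 1e-10). LINC00511 averaged 2.03 ± 0.343, 0.393 ± 0.143 and 0.635 ± 0.208 CPM (SD, n = 4) in 786-M1A and 2.25 ± 0.437, 4.72 ± 0.564 and 4.99 ± 0.404 CPM in OS-LM1, in the order sgNTC18, shPAX8-1 and shPAX8-2. It fell by 2.34 and 1.70 log2 in 786-M1A (adjusted p 8.3e-09 and 1.3e-06) and rose by 1.07 and 1.15 log2 in OS-LM1. The rises are given as descriptions, since its mean count over all libraries outside the OS-LM1 hairpin groups was 36.25. LINC00511 had whole counts in every library and LINC00673 fractional counts in 20, and the difference between the lines in these responses to a hairpin was not itself tested.

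LINC00887 showed the opposite pair of directions. Its group means were 2.68 ± 0.333, 18.9 ± 2.11 and 23.9 ± 5.53 CPM (SD, n = 4) in 786-M1A and 3.34 ± 0.322, 1.49 ± 0.272 and 1.01 ± 0.242 CPM in OS-LM1. It rose by 2.82 log2 (SE 0.17, adjusted p 9.3e-14) and 3.17 log2 (SE 0.17, adjusted p 2.6e-14) in 786-M1A and fell by 1.16 log2 (SE 0.19, adjusted p 4.8e-06) and 1.67 log2 (SE 0.19, adjusted p 3.3e-08) in OS-LM1. LINC01105 (SILC1, a regulator of SOX11) was low in 4 groups and higher with the hairpins in OS-LM1, the groups through which it reached the threshold, with a mean count of 8.364 over the sgNTC18 libraries. Its OS-LM1 sgNTC18 libraries read 0.366, 0.322, 0 and 0.241 CPM, and its hairpin libraries there 7.09, 5.56, 6.06 and 6.15 CPM, and 6.93, 7.34, 6.84 and 7.01 CPM. These were differences of 4.72 log2 (SE 0.43) and 4.89 log2 (SE 0.43), as descriptions. In 786-M1A its group means were between 0.129 and 0.336 CPM, and neither hairpin passed the test (adjusted p 0.31 and 0.091), although leaving out replicate 1 of 786-M1A shPAX8-2 gave a called -2.34 log2 in place of -1.45, leaving out replicate 1 of 786-M1A sgNTC18 a called -1.73 and leaving out replicate 3 of OS-LM1 sgNTC18 a called -1.45.

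LINC01001 (chromosome 11 at 127134 to 139117) read 0, 0.884, 0.583 and 0 CPM in 786-M1A sgNTC18. With shPAX8-1 it read 57.1, 41.5, 20.2 and 19.6 CPM, and with shPAX8-2 49.2, 49.5, 26.2 and 20.5 CPM. Its counts were fractional in 21 libraries, which leaves its level uncertain. The differences, 6.59 and 6.67 log2, had an SE of 0.95 each (adjusted p 4e-06 and 5.1e-06). LINC00657 (NORAD) rose with both hairpins in both lines, with a smaller SE. Its counts were fractional in all 24 libraries, so its level carries the same uncertainty. It averaged 142 ± 12.9, 280 ± 32.4 and 286 ± 17.5 CPM (SD, n = 4) in 786-M1A and 171 ± 8.23, 292 ± 30.3 and 255 ± 29.2 CPM in OS-LM1. The differences were 0.99 and 1.01 log2 (SE 0.10 each, adjusted p 1.8e-09 and 2e-09), and 0.77 and 0.57 log2 (SE 0.10 each, adjusted p 1.6e-07 and 1.5e-05).

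LINC00152 (CYTOR) rose in OS-LM1, with counts that were fractional in 22 libraries, which leaves its level uncertain. Its OS-LM1 sgNTC18 libraries read 58.0, 50.9, 59.8 and 57.4 CPM. With shPAX8-1 they read 219, 144, 173 and 238 CPM, and with shPAX8-2 147, 174, 152 and 207 CPM. The differences were 1.78 log2 (SE 0.13, adjusted p 7e-12) and 1.59 log2 (SE 0.13, adjusted p 7.1e-11), with no overlap. In 786-M1A the means were 50.9, 50.9 and 60.8 CPM, and the test was not passed with either hairpin (adjusted p 1.0 for shPAX8-1 and 0.093 for shPAX8-2). DESeq2 and a fit on the compared groups alone called the shPAX8-2 difference there, at 0.30 and 0.28 log2. LINC01116 fell in 786-M1A from 75.6 ± 4.59 CPM to 12.8 ± 1.56 CPM with shPAX8-1 and 24.4 ± 3.07 CPM with shPAX8-2 (SD, n = 4; -2.56 and -1.63 log2, adjusted p 2.3e-16 and 1.4e-12). In OS-LM1 it rose with shPAX8-1, from 60.7 ± 2.62 to 83.5 ± 9.99 CPM (0.46 log2, SE 0.10, adjusted p 0.00036), and averaged 64.3 ± 5.67 CPM with shPAX8-2 (0.08 log2, SE 0.10, adjusted p 0.51).

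The lines themselves differed for most members. Among the sgNTC18 libraries 75 of 100 were called, 34 higher and 41 lower in OS-LM1, beside 63.0% of all genes tested, 32.0% higher and 31.0% lower. Among the shPAX8 libraries, in which the 8 libraries of each line were averaged over the hairpins, 91 were called, 46 higher and 45 lower, beside 83.1%, 41.7% and 41.5%. The groups did not overlap for 71 and 62 members, beside 62.0% and 46.7% of all genes tested. Of the calls, 17 and 24 were of members that reached the threshold through the line or libraries in which they were higher. The median absolute difference between the lines was 0.81 log2 for the members and 0.59 for all genes among sgNTC18 libraries, and 1.34 and 0.90 log2 among shPAX8 libraries. These comparisons share no library, and their differences correlated over the 100 members with r = 0.69 and rho = 0.68, beside 0.75 and 0.64 over all genes tested, as a description with no p. The sign was the same for 78 members and for 73.0% of all genes.

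**Figure D4:**
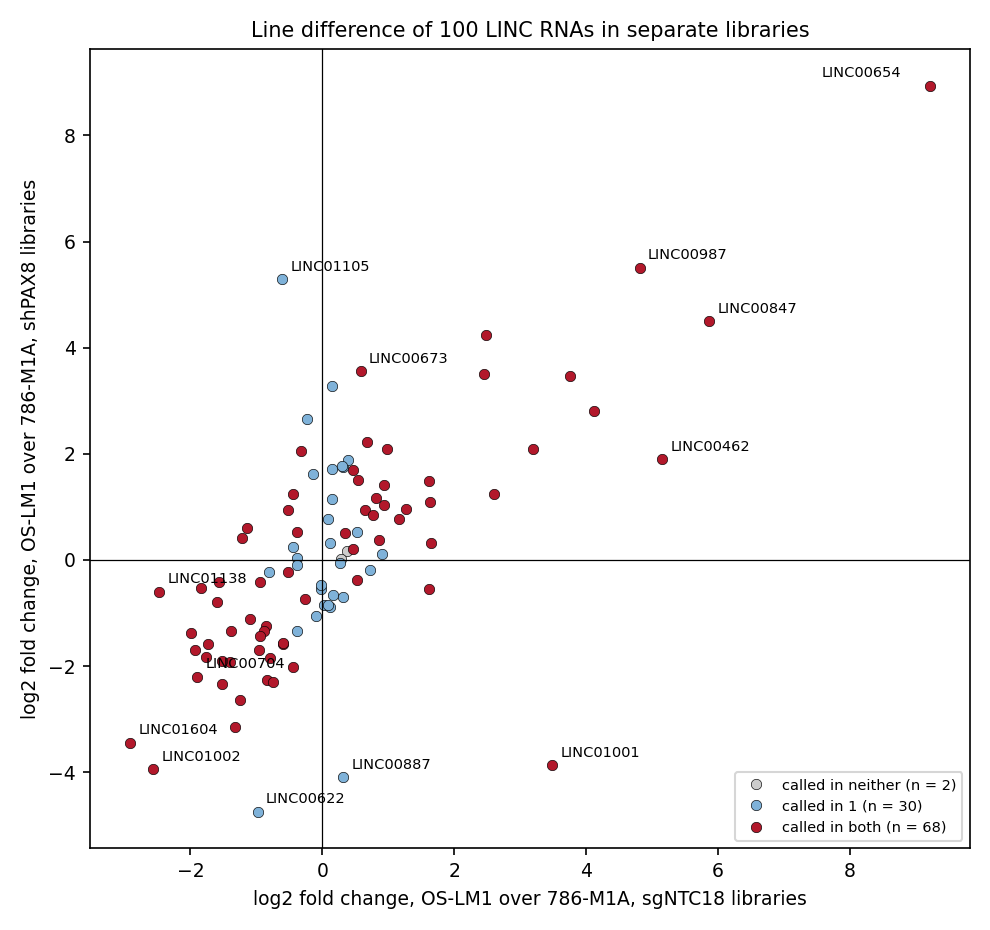
Each point is 1 of the 100 LINC RNAs, with the log2 difference of OS-LM1 against 786-M1A in sgNTC18 libraries on the x axis and in shPAX8 libraries on the y axis. Of 68 called in both, 59 lie in quadrants of the same sign and 9 in quadrants of opposite sign. The matching counts over all genes were not made. Called or not, 78 members and 73.0% of all genes tested have the same sign.

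LINC00654 was at or near 0 in 1 line and measured in every library of the other. It lies on chromosome 20 at 5496067 to 5504596 (minus strand). Its 4 sgNTC18 libraries of 786-M1A held 0 counts, as did those with shPAX8-2, and those with shPAX8-1 held 1 count. In OS-LM1 it read 3.21, 3.02, 3.25 and 2.89 CPM with sgNTC18, 4.91, 4.92, 5.3 and 4.29 CPM with shPAX8-1, and 4.27, 4.24, 5.84 and 4.77 CPM with shPAX8-2. Against a floor of 3 counts over the 786-M1A group it was at least 99.2-fold higher in OS-LM1 among sgNTC18 libraries and at least 101-fold higher among shPAX8-2 libraries. The floor covers counting error only, and the gene reached the threshold through OS-LM1.

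Other members differed between the lines with any construct or with one of them. LINC00847 and LINC00987 reached the threshold through OS-LM1 and LINC00462 through its sgNTC18 libraries, so their values are descriptions. LINC00847 read 5.38, 7.26, 6.62 and 6.03 CPM in OS-LM1 sgNTC18 and 0.205, 0.0553, 0.0971 and 0.0439 CPM in 786-M1A sgNTC18 (5.86 log2, SE 0.34), and among shPAX8 libraries the difference was 4.50 log2 (SE 0.23). LINC00987 was higher in OS-LM1 by 4.81 log2 (SE 0.29) and 5.51 log2 (SE 0.22). LINC01604 (MINCR, a MYC-induced RNA) was lower in OS-LM1. It read 21.1, 26.3, 22.3 and 26.7 CPM in 786-M1A sgNTC18 and 3.3, 3.05, 2.92 and 3.56 CPM in OS-LM1 sgNTC18 (-2.91 log2, SE 0.14, adjusted p 5.1e-16), and among shPAX8 libraries the difference was -3.44 log2 (SE 0.10, adjusted p 3.1e-21). LINC00462 was highest in OS-LM1 sgNTC18. It read 10.3, 11.4, 12 and 10.4 CPM there and 0.37, 0.111, 0.485 and 0.176 CPM in 786-M1A (5.15 log2, SE 0.31), whereas in OS-LM1 it read 0.486, 0.318, 0.0803 and 0.342 CPM with shPAX8-1 and 2.8, 2.45, 2.38 and 2.59 CPM with shPAX8-2.

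Some members passed the test between the lines in one set of libraries and not in the other, or with the opposite sign. LINC00622 did not pass it in sgNTC18 libraries (-0.98 log2, SE 0.58, adjusted p 0.15), though it was called at -2.34 log2 without replicate 4 of OS-LM1 sgNTC18, and was lower in OS-LM1 by 4.74 log2 (SE 0.22) with the hairpins, the groups that brought it over the threshold. LINC00887 gave 0.32 log2 (SE 0.17, adjusted p 0.11) and -4.09 log2 (SE 0.13, adjusted p 2.1e-20) in turn. LINC01105 gave -0.61 log2 (SE 0.55, adjusted p 0.34) and 5.29 log2 (SE 0.36), the latter again a description. LINC01116 changed sign, from -0.32 log2 (SE 0.10, adjusted p 0.01) to 2.05 log2 (SE 0.08, adjusted p 8.8e-19), as did LINC00460, from 1.61 log2 (SE 0.21, adjusted p 2.7e-07) to -0.54 log2 (SE 0.16, adjusted p 0.0025). The change from one set of libraries to the other was not itself tested.

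The hairpins shPAX8-1 and shPAX8-2 target the same gene, and comparing them asks which members differ in level between constructs against it. PAX8 itself was at different levels with them in 786-M1A (18.7 and 42.4 CPM) and at like levels in OS-LM1 (78.2 and 79.2 CPM), and its part in these differences was not tested. In 786-M1A the count was below that of all genes, and in OS-LM1 above it. In 786-M1A 39 of 100 were called, 13 higher and 26 lower with shPAX8-1, beside 48.1% of all genes tested, 24.9% higher and 23.2% lower. In OS-LM1 38 were called, 32 higher and 6 lower, beside 23.1%, 11.4% and 11.7%. The members' median difference was -0.11 log2 in 786-M1A and 0.25 log2 in OS-LM1, while that of all genes was -0.02 and 0. The libraries did not overlap for 31 and 37 members, beside 34.1% and 24.1% of all genes tested. In each line 2 calls were of members that reached the threshold through the higher side. Without replicates 3 and 4 of 786-M1A shPAX8-1 the 39 calls became 24. The share of all genes called in that fit is not given here, so this drop cannot be read as particular to the members. The lines share no library here, and over the 100 members the differences correlated with r = 0.46 and rho = 0.36, beside 0.21 and 0.28 over all genes tested, with 54 members and 60.9% of all genes of the same sign.

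**Figure D5:**
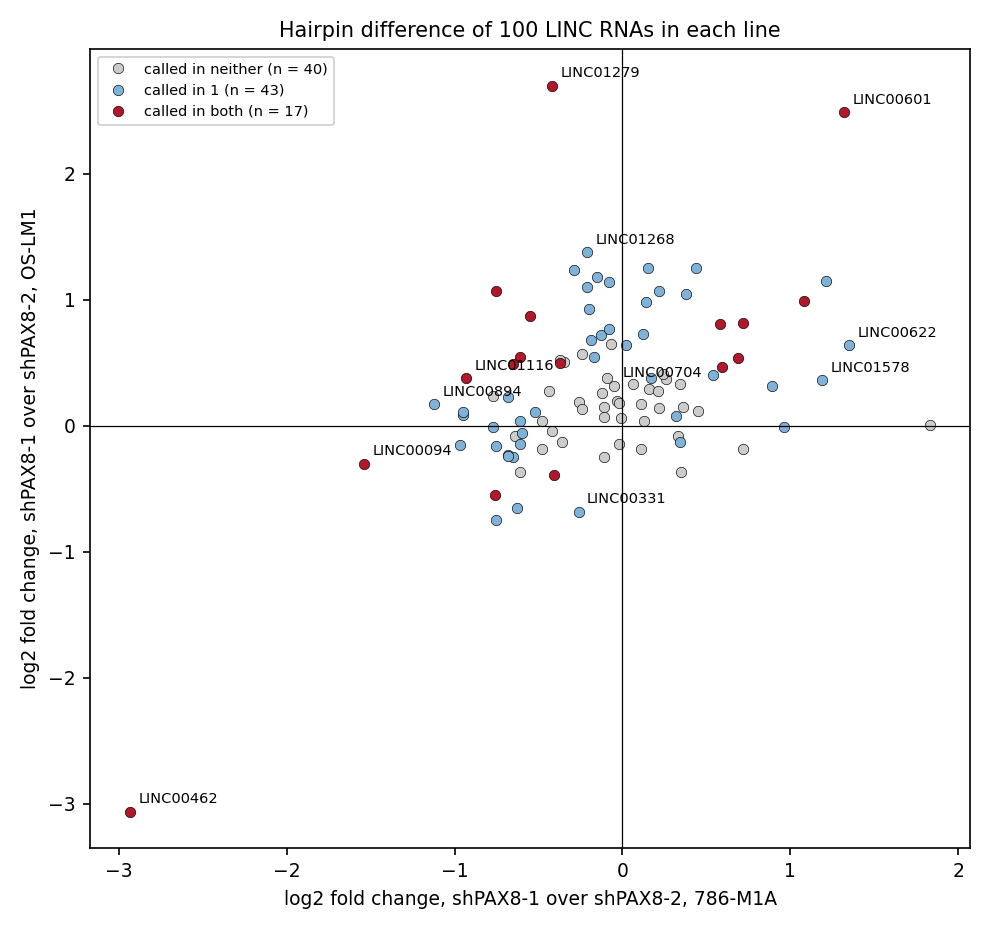
Each point is 1 of the 100 LINC RNAs, with the log2 difference of shPAX8-1 against shPAX8-2 in 786-M1A on the x axis and in OS-LM1 on the y axis. Of 17 called in both lines 10 have the same sign and 7 opposite signs, 43 were called in 1 line and 40 in neither. The matching counts over all genes were not made. Called or not, 54 members and 60.9% of all genes tested have the same sign.

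LINC00462 was lower and LINC00467 higher with shPAX8-1 in both lines. LINC00462 was lower by 2.93 log2 in 786-M1A (SE 0.54, adjusted p 8.4e-05), where its 4 shPAX8-1 libraries held 6 counts in all, and by 3.06 log2 in OS-LM1 (SE 0.33, adjusted p 9.6e-08). LINC00467 read 3.08, 3.48, 3.85 and 5.36 CPM with shPAX8-1 and 1.25, 1.83, 2.24 and 2.2 CPM with shPAX8-2 in 786-M1A (1.08 log2, SE 0.22, adjusted p 0.00027). In OS-LM1 it read 5.44, 5.5, 9.23 and 6.0 CPM, and 3.15, 3.52, 3.48 and 3.04 CPM (0.99 log2, SE 0.20, adjusted p 0.00048). Its lowest shPAX8-1 library lay above its highest shPAX8-2 library in each line. LINC00294 was lower with shPAX8-1 in both, by 0.76 log2 (SE 0.11, adjusted p 2.4e-06) and 0.55 log2 (SE 0.11, adjusted p 0.00042). LINC00601 reached the threshold through OS-LM1 shPAX8-1, with a mean count of 24.4 over all other libraries, so its values are descriptions. It was higher with shPAX8-1 by 1.32 log2 in 786-M1A (SE 0.40), where the libraries overlapped. In OS-LM1 it read 9.09, 9.84, 11.2 and 9.98 CPM with shPAX8-1 and 1.89, 1.49, 1.75 and 1.95 CPM with shPAX8-2 (2.49 log2, SE 0.26).

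In 786-M1A, LINC00094 (BRD3OS) had the largest called difference after LINC00462. It read 17.8, 22.2, 16.0 and 15.9 CPM with shPAX8-1 and 51.1, 57.8, 50.3 and 50.6 CPM with shPAX8-2 (-1.54 log2, SE 0.10, adjusted p 1.9e-11), beside 54.5 to 58.6 CPM in the sgNTC18 libraries. Its counts were fractional in all 24 libraries, and it overlaps BRD3 on the opposite strand. LINC00894, now EOLA2-DT, read 7.74, 6.59, 5.96 and 5.41 CPM with shPAX8-1 and 15.4, 12.7, 12.4 and 15.5 CPM with shPAX8-2 (-1.12 log2, SE 0.23, adjusted p 0.00025). LINC01578 (CHASERR, which restrains its neighbour CHD2 in cis) read 8.42, 11.4, 20.2 and 22.8 CPM with shPAX8-1 and 5.58, 6.8, 8.29 and 6.87 CPM with shPAX8-2 (1.19 log2, SE 0.22, adjusted p 8.3e-05). Its high values were those of replicates 3 and 4. CHD2, 17481 bases away on the same strand, differed by -0.24 log2 there (adjusted p 0.04). Against sgNTC18 in OS-LM1 both were higher, LINC01578 by 1.39 and 1.03 log2 and CHD2 by 0.92 log2 (adjusted p 3.8e-09) and 0.59 log2 (adjusted p 6.9e-06). In 786-M1A LINC01578 differed from sgNTC18 by 0.26 and -0.93 log2 and CHD2 by 0.26 log2 (adjusted p 0.018) and 0.50 log2 (adjusted p 6e-05), for shPAX8-1 and shPAX8-2. LINC00493 (SMIM26) showed the same division, with 39.0, 40.6, 69.2 and 74.8 CPM with shPAX8-1, and its difference of 0.69 log2 to shPAX8-2 (SE 0.17, adjusted p 0.0018) became 0.21 log2, which was not called, without replicates 3 and 4.

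In OS-LM1 LINC01279 had the largest rise with shPAX8-1 over shPAX8-2 among the members. It read 57.8, 51.8, 62.7 and 53.1 CPM with shPAX8-1 and 7.84, 10.8, 8.45 and 7.62 CPM with shPAX8-2 (2.70 log2, SE 0.14, adjusted p 3.9e-13), beside 1.47, 1.35, 1.5 and 1.93 CPM with sgNTC18. Its counts were fractional in 23 libraries and RefSeq holds the symbol under CCDC80, a secreted matrix protein. Whether reads of CCDC80 were counted under LINC01279 was not tested. In the order sgNTC18, shPAX8-1 and shPAX8-2, CCDC80 itself averaged 24.1, 281 and 73.2 CPM in OS-LM1 and 29.1, 238 and 169 CPM in 786-M1A. In 786-M1A LINC01279 read 2.01, 1.6, 1.75 and 1.93 CPM with sgNTC18. With shPAX8-1 it read 2.09, 3.16, 3.61 and 3.31 CPM there, and with shPAX8-2 3.93, 3.51, 5.06 and 3.87 CPM. The fibroblast markers COL1A1, COL3A1 and DCN averaged 16.2, 0.05 and 0.0798 CPM in OS-LM1 sgNTC18, 102, 14.3 and 0.711 CPM with shPAX8-1, and 166, 3.08 and 0.292 CPM with shPAX8-2, and their part in the LINC01279 values was not tested.

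LINC01268 (MROCKI, near MARCKS) read 9.52, 8.89, 9.91 and 6.41 CPM in OS-LM1 with shPAX8-1 and 4.34, 3.1, 2.92 and 3.14 CPM with shPAX8-2 (1.38 log2, SE 0.21), as a description, since its mean count outside OS-LM1 shPAX8-1 was 49.28. MARCKS, whose start is 16002 bases away, differed by 0.01 log2 (adjusted p 0.98). Against sgNTC18 both were higher with both hairpins in both lines, MARCKS by 0.92 and 0.82 log2 in 786-M1A (adjusted p 9.6e-09 and 1.2e-07) and 1.71 log2 with each hairpin in OS-LM1 (adjusted p 1.1e-13 and 1.6e-13), beside 0.92, 1.13, 2.20 and 0.82 log2 for LINC01268. LINC01138 and LINC01604 (MINCR) were higher with shPAX8-1 as well, with no overlap between the hairpins' libraries. LINC01138 read 12.8, 10.9, 9.83 and 12.2 CPM and 4.41, 4.72, 6.3 and 6.31 CPM in turn (1.05 log2, SE 0.17, adjusted p 4.4e-05). LINC01604 read 7.29, 5.34, 5.5 and 5.16 CPM and 2.03, 3.1, 2.84 and 2.43 CPM (1.14 log2, SE 0.15, adjusted p 2.9e-06). LINC00331 was among the 6 that were lower with shPAX8-1, at 2.28, 2.17, 2.41 and 3.15 CPM against 4.06, 4.42, 3.67 and 4.0 CPM (-0.68 log2, SE 0.18, adjusted p 0.0062).

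The interaction test asks whether the hairpin difference depends on the line. It was passed by 32 of 100 members, 29 with a higher and 3 with a lower value in OS-LM1, beside 27.2% of all genes tested, 12.7% higher and 14.5% lower, and by 20 without replicates 3 and 4 of 786-M1A shPAX8-1. The share of all genes that passed in that smaller fit is not given here. How many of the 32 reached the threshold through a higher group was not counted. The members' median was 0.39 log2 and that of all genes 0.02. LINC01279 had the largest value, 3.12 log2 (SE 0.22, adjusted p 4.4e-10). It was followed by LINC00346 with 1.82 log2 (SE 0.29, adjusted p 5.9e-05), which was lower with shPAX8-1 in 786-M1A (-0.75 log2) and higher in OS-LM1 (1.07 log2). The 786-M1A value of LINC00346 lost its call without replicate 4 of shPAX8-2, at -0.54 log2, and in a fit on the compared groups alone. LINC01268 gave 1.59 log2 (SE 0.32), as a description, and LINC01116 1.31 log2 (SE 0.15, adjusted p 8.8e-07). The 3 members with a lower value were LINC00460, LINC01578 and LINC01128, whose calls each depended on single libraries. LINC01578, at -0.83 log2 (SE 0.29, adjusted p 0.034), gave -0.19 log2 without replicates 3 and 4 of 786-M1A shPAX8-1.

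A list of 21 LINC RNAs with a described role, chosen with earlier results known, held 15 members. LINC00473, LINC00261, LINC00461, LINC01133, LINC00520 and LINC00705 fell below the count threshold, with mean counts of 4.792, 8.157, 22.12, 13.33, 21.82 and 1.042. With shPAX8-1 against sgNTC18, 5 of the 15 were higher, 6 lower and 4 not called in 786-M1A, and 11 were higher, 2 lower and 2 not called in OS-LM1, where all genes gave 34.9% higher and 34.6% lower, and 34.0% and 32.9%. With shPAX8-2 the counts were 4, 7 and 4 in 786-M1A and 9, 2 and 4 in OS-LM1, beside 30.8% higher and 31.5% lower, and 31.4% and 32.1%. Between the hairpins, 4 were higher with shPAX8-1, 5 lower and 6 not called in 786-M1A, and 4, 0 and 11 in OS-LM1, beside 24.9% higher and 23.2% lower, and 11.4% and 11.7%. OS-LM1 was higher than 786-M1A for 7 and lower for 4 in sgNTC18 libraries, and higher for 10 and lower for 3 in shPAX8 libraries, beside 32.0% and 31.0%, and 41.7% and 41.5%. LINC00963, one of those higher in OS-LM1 with both hairpins, averaged 9.67 ± 1.30, 24 ± 2.03 and 22.7 ± 3.54 CPM (SD, n = 4) there, in the order sgNTC18, shPAX8-1 and shPAX8-2. LINC00941 averaged 21.8 ± 1.90, 31.8 ± 4.68 and 35 ± 4.64 CPM in the same groups (adjusted p 0.00022 and 1.4e-05). LINC00667 fell in 786-M1A, from 25.4 ± 1.60 to 10.2 ± 1.36 and 14.7 ± 0.729 CPM (-1.31 and -0.79 log2, adjusted p 2.5e-11 and 2.9e-07), and in OS-LM1 gave -0.07 and -0.19 log2 (adjusted p 0.54 and 0.11). Each of these OS-LM1 values of LINC00667 was called once the trend of fold change on GC content was removed.

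Position relative to protein-coding genes was compared last. A protein-coding start lay within 100 kb for 62 of the 97 members with a strand, and 51 of these neighbours were tested, of which 9 started within 2 kb in divergent orientation. Between the lines the member and its neighbour differed in the same direction for 36 of 51 pairs in sgNTC18 libraries (rho = 0.36) and 29 in shPAX8 libraries (rho = 0.18), and for 7 and 8 of the 9 divergent pairs. Between the hairpins it did so for 26 of 51 pairs in 786-M1A (rho = 0.04) and 28 in OS-LM1 (rho = 0.18), and for 6 and 2 of the divergent pairs. Against sgNTC18 the pairs of the same direction were 26 and 25 of 51 in 786-M1A (rho = 0.14 and 0.02) and 30 and 30 in OS-LM1 (rho = 0.22 and 0.06), for shPAX8-1 and shPAX8-2, and 5, 3, 6 and 6 of the divergent pairs. The pairs share libraries, and these values are descriptions with no test.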

How the data were processed

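RNA-seq of 24 libraries was analysed, 4 for each of sgNTC18, shPAX8-1 and shPAX8-2 in 786-M1A and in OS-LM1. Reads were aligned to hg38 with bowtie2 by the authors, who deposited the expected counts and TPM that RSEM estimated for 26475 genes, the counts without normalization. Tool versions, the annotation release and the strand setting of the counting are not given in the sources used here. The labels name a stranded poly(A) kit and the methods another kit. RNA without a poly(A) tail is under-represented, and overlapping antisense genes may share reads.

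After rounding, the counts were analysed with edgeR 4.0.16 in R 4.3.3. Genes were filtered with filterByExpr, scaled by TMM and fitted as 6 groups with the robust quasi-likelihood test. P-values were adjusted by Benjamini-Hochberg over all 15665 genes tested, with a threshold of 0.05. The code was tested on simulated data. CPM compares libraries for 1 gene, and the deposited TPM compares genes. The members and lists were chosen with earlier results of these data known. The genes named are LINC00704, the 6 members with the highest mean TPM, up to 4 members in each direction in each comparison between lines and up to 3 in each other comparison, by log2 fold change among called members whose libraries do not overlap (for the interaction, among called members), and members of the list of described roles. Coordinates and promoters are those of RefSeq for GRCh38.p14. All replicate pairs differed by more than counting noise. Alternatives were DESeq2 1.42.0 and its size factors, no filter, each comparison fitted on its own groups, removal of the trend on GC content, the replicate block, each library left out, and stricter thresholds.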

Additional observations from a re-analysis of the deposited data

Results flagged for a closer look

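In 11 of the 252 sets of 4 libraries of the 42 named members, 1 library stood far from the other 3, where chance gives about 1 in 20. Those of the 786-M1A shPAX8-1 libraries were LINC00704 in replicate 1 (20.1 CPM), LINC00887 in replicate 1 (22.0 CPM), LINC00654 in replicate 3 (0.0602 CPM, its only count) and LINC00462 in replicate 2 (0.0 CPM). With shPAX8-2 in that line LINC00094 stood out in replicate 2 (57.8 CPM). In OS-LM1 shPAX8-1 they were LINC01604 in replicate 1 (7.29 CPM), LINC00998 in replicate 2 (40.3 CPM), LINC00622 in replicate 2 (0.212 CPM) and LINC00467 in replicate 3 (9.23 CPM). With shPAX8-2 they were LINC00622 (0.42 CPM) and LINC01268 (4.34 CPM), both in replicate 1.

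The hairpin difference depended on the line, by the interaction test of the same fit (adjusted p under 0.05), for 16 named members. Among them, LINC01268 reached the threshold through OS-LM1 shPAX8-1, with a mean count of 49.28 outside it, so its value is a description. The value in OS-LM1 minus that in 786-M1A, as log2, was 3.12 for LINC01279, 1.82 for LINC00346, 1.59 for LINC01268, 1.42 for LINC00476, 1.31 for LINC01116, 1.29 for LINC00894, 1.24 for LINC00094, 1.22 for LINC01604, 1.15 for LINC00673, 1.13 for LINC00938, 0.85 for LINC00887, 0.67 for LINC01138 and 0.63 for LINC00667. It was -0.47 for LINC01128, -0.83 for LINC01578 and -0.96 for LINC00460. The call was lost under 20 alternatives for LINC01128, 10 each for LINC01578 and LINC01138, 8 for LINC00938, 6 for LINC00460 and 2 for LINC00887. The single libraries that ended the LINC00460 call were OS-LM1 shPAX8-2 replicate 4, OS-LM1 shPAX8-1 replicate 2, 786-M1A shPAX8-2 replicate 2 and 786-M1A shPAX8-1 replicate 4, with -0.80, -0.82, -0.90 and -0.88 log2 without them. The library that ended the LINC00887 call was OS-LM1 shPAX8-1 replicate 4, with 0.74 log2 without it.

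Some named members moved away from sgNTC18 in opposite directions in the lines, with no overlap between libraries. The difference between the lines was not tested for them. With shPAX8-1 the log2 differences in 786-M1A and OS-LM1 were -2.56 and 0.46 for LINC01116, 2.82 and -1.16 for LINC00887, -1.64 and 0.62 for LINC00094, -1.64 and 0.97 for LINC00346, and 1.28 and -1.35 for LINC00460. They were -1.97 and 1.59 for LINC00673, -2.34 and 1.07 for LINC00511, -0.80 and 0.54 for LINC00941, and -0.51 and 0.57 for LINC00665. The -0.51 of LINC00665 became -0.29, which was not called, without replicates 3 and 4 of 786-M1A shPAX8-1. With shPAX8-2 they were -0.46 and 1.08 for LINC01138, 3.17 and -1.67 for LINC00887, -0.93 and 1.03 for LINC01578, -1.36 and 1.04 for LINC00673, -1.70 and 1.15 for LINC00511, and -0.35 and 1.24 for LINC00963.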

How the results depend on the processing

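Leaving out 1 library at a time gave 70 to 76 members called between the lines in sgNTC18 libraries and 89 to 92 in shPAX8 libraries. Between the hairpins it gave 29 to 45 in 786-M1A and 33 to 39 in OS-LM1, and for the interaction 24 to 36. Against sgNTC18 it gave 61 to 70 and 63 to 71 for shPAX8-1 and shPAX8-2 in 786-M1A, and 61 to 66 and 56 to 61 in OS-LM1. Without replicates 3 and 4 of 786-M1A shPAX8-1, 24 members were called between the hairpins in 786-M1A and 20 in the interaction, and at an adjusted p under 0.01 the interaction gave 18. Fewer libraries or a stricter threshold make these alternatives. The shares of all genes called under the alternatives of this section are not given, so changes in the counts cannot be read as particular to the members. With DESeq2 the 9 counts ran, in the order of the line, hairpin, sgNTC18 and interaction comparisons, 75, 90, 42, 41, 70, 71, 66, 63 and 38. Replicate numbers did not pair the libraries (same-numbered libraries of a line had a mean correlation of 0.003 in their deviations from the group means, range -0.319 to 0.271), and with the replicate block the counts were 75, 92, 38, 39, 66, 68, 65, 58 and 30, each within 1.5 times the reported one. Over 373 results of named members and 12292 alternatives, 11992 kept direction and side of the threshold, 200 lost a call, 99 gained one and 1 reversed. That was LINC00998 between the hairpins in 786-M1A, called at -0.34 log2 once the trend on GC content was removed where the reported 0.21 log2 was not called, and the cause was not tested. Without replicates 1 and 2 of 786-M1A shPAX8-1 the same difference was called at 0.55 log2. A mean count of at least 25 would give 141 members and one of at least 100 would give 70. Members near the threshold have few counts per library, which limits differences that can be detected among them.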
